A study of Mus musculus with 15 samples.

Results

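The genes described here are 9 members of the antioxidant programme controlled by the transcription factor NRF2. They were chosen by name, with earlier results of these data known: *Nfe2l2*, which encodes NRF2, *Keap1*, which encodes its repressor, and 7 genes widely used as readouts of the programme (*Hmox1*, *Gclc*, *Gclm*, *Slc7a11*, *Srxn1*, *Txnrd1* and *Osgin1*). Each was found by its Entrez gene ID among the 24134 genes of both deposited count tables, and all 9 were abundant enough to be tested in both. RNA sequencing had been performed on 15 libraries of primary articular chondrocytes, the cells of joint cartilage, isolated from the femoral condyles and tibial plateaus of ICR mice aged 4 to 5 days. All cells were at passage 0 in medium with 10% fetal bovine serum. The siRNA table holds 3 libraries of cells transfected with a control siRNA (siCtrl) and 3 of cells transfected with siRNAs against both tankyrase genes, *Tnks* and *Tnks2* (siTnks/2). The drug table holds 3 libraries each of cells given DMSO, 10 µM XAV939 or 10 µM IWR-1 for 108 h, all untransfected. XAV939 and IWR-1 are chemically unrelated tankyrase inhibitors that occupy different pockets of the catalytic domain, and both block the transfer of ADP-ribose chains onto substrate proteins. No genotype other than the ICR strain is given for any group. The 3 libraries of a group are called biological replicates, without stating whether cells of several animals were pooled.

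NRF2 is made continuously and is held in check by KEAP1, which hands it to a ubiquitin ligase for degradation. Oxidants and electrophiles modify cysteines of KEAP1, NRF2 then escapes degradation, pairs with a small MAF protein and binds antioxidant response elements (ARE) in the promoters of detoxifying genes, sites at which the repressor BACH1 competes with it. Because NRF2 is controlled mainly as a protein, the abundance of its transcript is a poor guide to its activity, which is usually read from its target genes. In cartilage these enzymes limit the damage that reactive oxygen species do to chondrocytes under inflammation and load.

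To show the elements concerned, promoter windows of 300 bases, reaching from upstream of an annotated start to just downstream of it, were taken from RefSeq for GRCm38.p6, the build known as mm10, and searched on both strands. The letters were TGACNNNGC, the core of the ARE, and TGANTCA, the core bound by AP-1, which overlaps the ARE in many genes. Windows were found for 7 of the 9 members, *Hmox1* and *Gclc* being the others. The ARE core was present in 4 of these 7 genes (*Nfe2l2*, *Gclm*, *Srxn1* and *Txnrd1*) and in 3781 of all 27025 genes with a window. TGANTCA was present in *Srxn1* and *Osgin1*, and in 8.97% of all genes. In both genes it continued into GC, as TGANTCAGC, which occurred in 1.37% of all genes and was searched only after the windows had been read. The matches are shown with 10 or more flanking bases, 5′ to 3′ on the strand of the gene, with the matched letters in capitals (reverse complement where the match lies on the other strand).
Nfe2l2: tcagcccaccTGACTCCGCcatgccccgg
Gclm: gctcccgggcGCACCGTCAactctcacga
Srxn1, nearer match: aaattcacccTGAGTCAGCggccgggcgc
Srxn1, farther match: ctcggagggccTGAGTCAccacgctgtgc
Txnrd1: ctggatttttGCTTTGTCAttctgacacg
Osgin1: aggggcccctGCTGACTCAcgcttatgaa
These stretches lie at chr2:75704885-75704913 on the minus strand for *Nfe2l2*, and on the plus strand at chr3:122245413-122245441 for *Gclm*, chr2:152105469-152105497 and chr2:152105411-152105439 for *Srxn1*, chr10:82859104-82859132 for *Txnrd1* and chr8:119437038-119437066 for *Osgin1*. The matched letters began 240 bases before the start of *Nfe2l2*, 134 before *Gclm*, 45 and 102 before *Srxn1*, 92 before 1 of the 3 annotated starts of *Txnrd1* and 99 before *Osgin1*. These distances are counted from the RefSeq start of each window. For *Gclm* (122245557), *Txnrd1* (82859206) and *Osgin1* (119437147) that start lies inside the outermost gene span given with each gene further on. The ARE core of *Srxn1* lay downstream of its start and is not shown. Neither set of letters was found in the windows of *Keap1* and *Slc7a11*. A match describes the sequence only, and binding was not measured.

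The libraries held 26857070 to 36615194 counts each. All 10 chondrocyte markers examined, such as *Col2a1* and *Acan*, were detected in every group, while their summed level, in CPM (read counts relative to the TMM-scaled library size of the table), differed between groups: 86070 to 115200 in siCtrl, 122900 to 200100 in siTnks/2, 26850 to 36190 in DMSO, 37020 to 55810 with XAV939 and 89460 to 113500 with IWR-1. The knockdown was visible in its targets. *Tnks* was at 58.4 to 70.1 CPM in siCtrl and 12.7 to 24.02 CPM in siTnks/2, and *Tnks2* at 115 to 120 CPM and 44.9 to 61.2 CPM.

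Of the 9 genes, *Hmox1* was by far the most abundant once counts were divided by exon length. In the DMSO libraries it averaged 545 CPM per kilobase, followed by *Srxn1* (63.8), *Nfe2l2* (49.3), *Txnrd1* (34.9), *Gclc* (22.2), *Keap1* (13.9), *Gclm* (5.33), *Osgin1* (2.83) and *Slc7a11* (2.70). Only the last pair, *Osgin1* and *Slc7a11*, had overlapping libraries among these neighbours. In the siCtrl libraries the order differed in that *Keap1* (11.9 CPM per kilobase) stood above *Gclc* (9.39), and *Nfe2l2* (18.9) and *Txnrd1* (18.7) overlapped. With XAV939 or IWR-1, *Nfe2l2* (38.0 and 35.5 CPM per kilobase) stood above *Srxn1* (32.5 and 26.4), although the libraries of the pair overlapped with XAV939. *Slc7a11* is represented by exons of 13922 bases in all, so its low level per kilobase depends on how much of them the cells use.

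When all 15 libraries were scaled together, the DMSO libraries had more of most of these transcripts than the siCtrl libraries, although neither had tankyrase targeted. The ratio of the means, DMSO over siCtrl, was 3.02 for *Hmox1*, 2.71 for *Srxn1*, 2.58 for *Nfe2l2*, 2.35 for *Slc7a11*, 2.34 for *Gclc*, 1.89 for *Osgin1* and 1.85 for *Txnrd1*. It was nearer to 1 for *Gclm* (1.27) and *Keap1* (1.16). Transfection, the solvent, time in culture and library run cannot be told apart here, so levels were not tested between the tables. Each treatment effect was taken against the control of its own table, and only such effects were tested across the tables. Levels set side by side across the tables further on are a description.

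**Figure D1:**
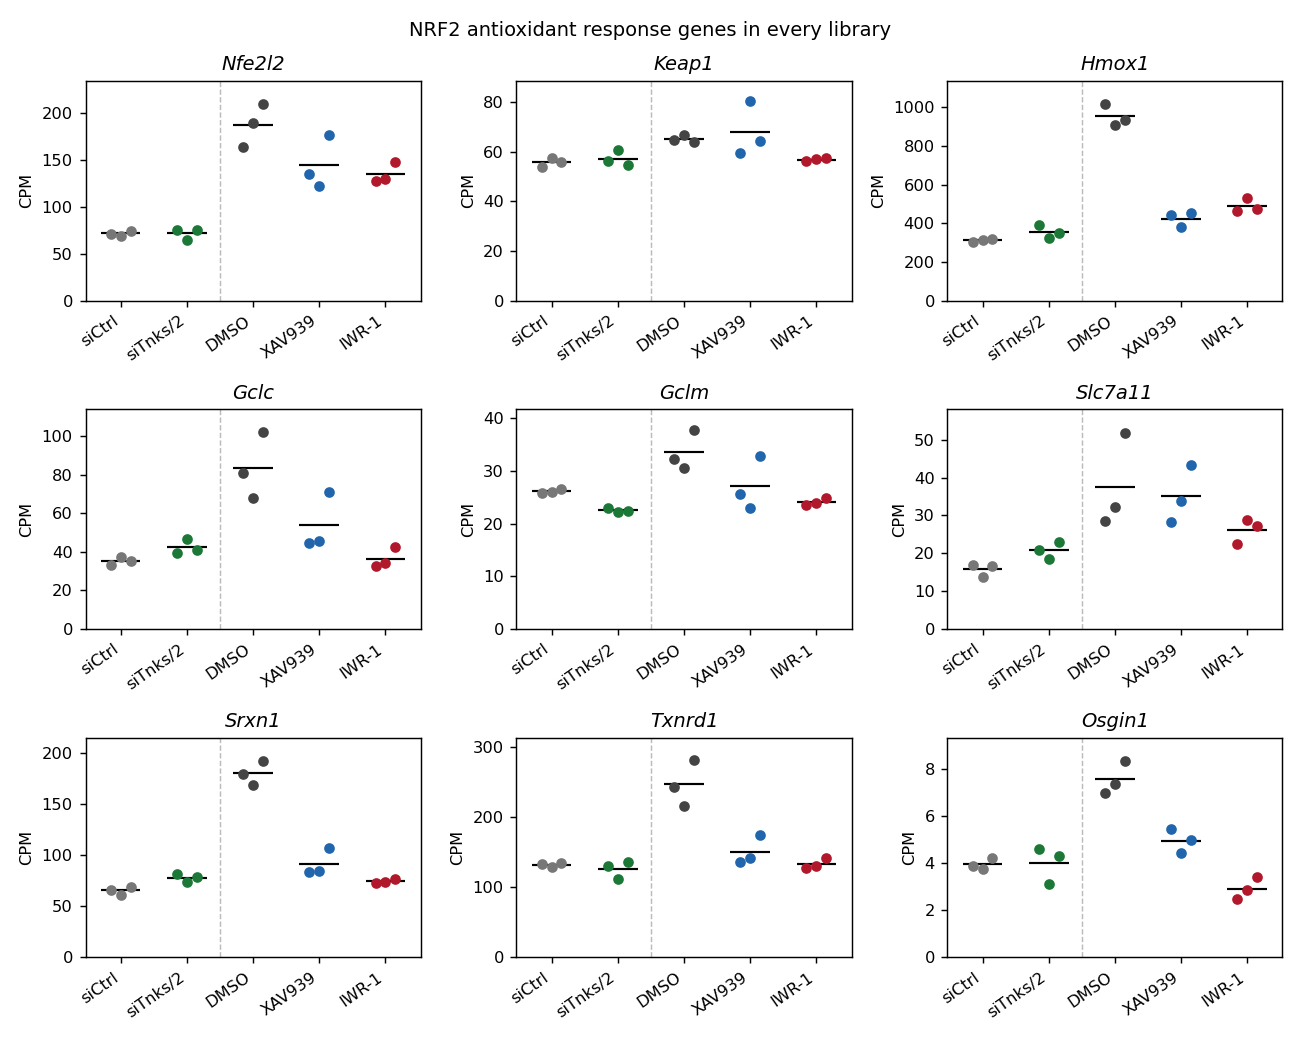
Level of each of the 9 genes in each of the 15 libraries, in CPM on a linear axis from 0. Points are libraries in the order of their replicate numbers, bars are group means, and the dashed line separates the siRNA table from the drug table. For *Hmox1* and *Srxn1* the 3 DMSO points stand clear above all others. Fitted siTnks/2 levels lie between 0.862 times (*Gclm*) and 1.32 times (*Slc7a11*) those of siCtrl.

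In the knockdown the fitted levels of the 9 genes lay between 0.862 and 1.32 times the control. At an adjusted p-value under 0.05 (edgeR quasi-likelihood test, adjusted over all genes tested), *Srxn1* rose and *Gclm* fell, that is 2 of 9 members, beside 18.0% of all 13672 genes tested, 10.4% higher and 7.61% lower. Over the 9 genes the log2 fold changes had a median of 0.04, against -0.0012 over all genes. With XAV939, 4 of 9 fell and none rose, where 17.4% of 13873 genes were called, 7.57% higher and 9.85% lower. With IWR-1, 7 of 9 fell and none rose, where 36.4% were called, 16.2% higher and 20.2% lower. The medians of the members were -0.60 and -0.89, against 0.016 and 0.0056 for all genes. The XAV939 and IWR-1 comparisons share the same 3 DMSO libraries, so they are not independent of each other. Libraries with the same replicate number deviated together, although DMSO replicate 2 followed replicate 1 of both compounds more closely. With that number in the fit as a block, 4 members were called in the knockdown (3 higher, 1 lower). With the block 7 were called with XAV939 and 8 with IWR-1, all lower. The calls over all genes also grew with the block, to 34.6% in the knockdown (18.1% higher, 16.5% lower), 33.4% with XAV939 (16.0% higher, 17.4% lower) and 47.5% with IWR-1 (22.2% higher, 25.3% lower).

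**Figure D2:**
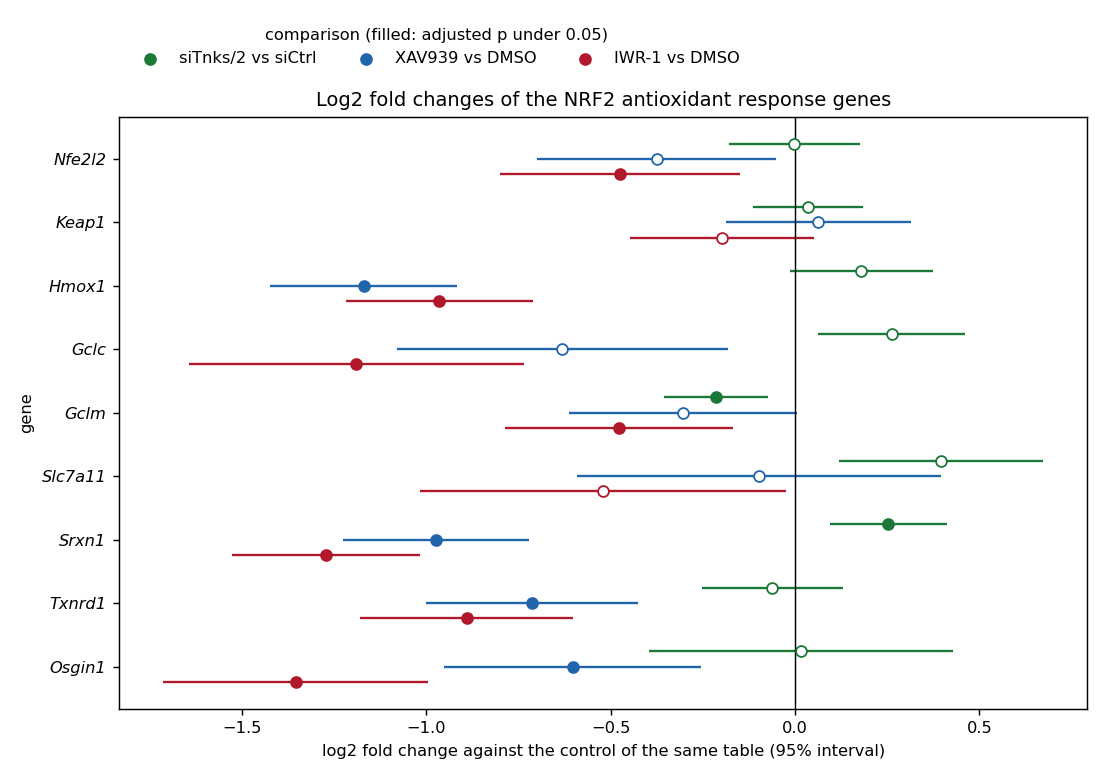
Log2 fold change of each of the 9 genes relative to its own table's control, drawn with the 95% interval, in the fits without a replicate block. Filled points have an adjusted p-value under 0.05. The filled drug points lie between -0.47 and -1.36, and the filled knockdown points lie at -0.21 and 0.25.

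Among the regulators, *Nfe2l2* (Entrez 18024, chr2:75675513-75704663, minus strand) did not follow tankyrase knockdown but was lower with IWR-1. In siCtrl its level was 71.4, 68.8 and 74.5 CPM in replicates 1 to 3, and in siTnks/2 75.0, 64.6 and 74.8 CPM. The siTnks/2 values spanned the siCtrl values, and the log2 fold change was -0.0018 ± 0.075 (SE; 95% interval -0.18 to 0.18; adjusted p = 0.989). In DMSO the level was 163, 189 and 209 CPM, with XAV939 134, 122 and 176 CPM, and with IWR-1 127, 129 and 148 CPM. All 3 IWR-1 libraries lay below all DMSO libraries, while the highest XAV939 library overlapped DMSO. *Nfe2l2* fell by 0.47 ± 0.15 on the log2 scale with IWR-1 (adjusted p = 0.0267). This call was lost without IWR-1 replicate 1 (adjusted p = 0.0906), IWR-1 replicate 2 (0.0947), DMSO replicate 2 (0.0561) or DMSO replicate 3 (0.0692). The XAV939 value, -0.37 ± 0.15, did not pass the test (adjusted p = 0.105) but did so with the replicate block (-0.38, adjusted p = 0.0101), and also without XAV939 replicate 3 (-0.56, adjusted p = 0.0210).

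*Keap1* (Entrez 50868, chr9:21229730-21239332, minus strand), which encodes the sensor and adaptor that targets NRF2 for destruction, had no call in any comparison with a control. Its level was 53.7 to 57.6 CPM in siCtrl, 54.5 to 60.6 in siTnks/2, 64.0 to 66.7 in DMSO, 59.4 to 80.6 with XAV939 and 56.3 to 57.3 with IWR-1. The groups overlapped except for IWR-1, whose 3 libraries lay below the DMSO libraries. The log2 fold changes were 0.04 ± 0.06 in the knockdown (95% interval -0.11 to 0.19), 0.06 ± 0.11 with XAV939 (-0.19 to 0.31) and -0.20 ± 0.11 with IWR-1 (-0.45 to 0.05). XAV939 replicate 2, at 80.6 CPM, stood apart from the other 2 XAV939 libraries, and without it the IWR-1 value had an adjusted p of 0.0497. The antisense gene *Gm16754* shares exon bases with *Keap1*. The kit marks strand, but the strand setting of the counting is not given in the sources used here.

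*Hmox1* (Entrez 15368, chr8:75093618-75100593, plus strand) encodes the inducible haem oxygenase, which opens haem into biliverdin, iron and carbon monoxide. Its level was 1017, 908 and 937 CPM in the DMSO libraries, 442, 378 and 451 CPM in the XAV939 libraries and 461, 531 and 474 CPM in those given IWR-1. Every treated library lay far below the lowest DMSO library. *Hmox1* fell to 0.444 times the DMSO level with XAV939 (log2 fold change -1.17 ± 0.12, adjusted p = 0.000141) and to 0.512 times with IWR-1 (-0.96 ± 0.11, adjusted p = 9.5e-05). In the siRNA table the levels were 304, 313 and 318 CPM in siCtrl and 390, 321 and 349 CPM in siTnks/2. The siTnks/2 libraries were all above the siCtrl libraries, though replicate 2 only just, and the difference of 0.18 ± 0.08 did not pass the test (adjusted p = 0.165). Without siTnks/2 replicate 2 it did (adjusted p = 0.0426).

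*Gclc* (Entrez 14629, chr9:77754535-77794489, plus strand) and *Gclm* (Entrez 14630, chr3:122245487-122267215, plus strand) encode the catalytic and the modifier subunit of glutamate-cysteine ligase, the rate-limiting enzyme of glutathione synthesis. *Gclc* was at 80.8, 68.0 and 102 CPM in DMSO, at 44.7, 45.8 and 71.4 CPM in the XAV939 libraries and at 32.8, 34.2 and 42.8 CPM in those given IWR-1. All IWR-1 libraries lay below DMSO, and XAV939 replicate 3 reached into the DMSO range. *Gclc* fell to 0.438 times DMSO with IWR-1 (log2 fold change -1.19 ± 0.21, adjusted p = 0.00104). The XAV939 change of -0.63 ± 0.20 narrowly missed the threshold (adjusted p = 0.0557) and passed it with the replicate block (-0.64, adjusted p = 0.000491). It also passed with DESeq2 (adjusted p = 0.0203), without a filter on low counts (0.0358) and without DMSO replicate 2 (0.0356) or XAV939 replicate 3 (0.0104).

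In the knockdown the estimates for the subunits had opposite signs. *Gclc* was at 33.5, 37.2 and 35.4 CPM in siCtrl and 39.5, 47.0 and 40.9 CPM in siTnks/2, all above siCtrl, with a log2 fold change of 0.26 ± 0.08 (adjusted p = 0.0716) that passed with the replicate block (0.26, adjusted p = 0.0164). *Gclm* was at 25.9, 26.1 and 26.5 CPM in siCtrl and 23.0, 22.2 and 22.4 CPM in siTnks/2. These values did not overlap and were tightly grouped, and *Gclm* fell by 0.21 ± 0.06 on the log2 scale (adjusted p = 0.0498). That call lay at the threshold: it was lost whichever of the 6 libraries was left out (adjusted p from 0.0634 to 0.162), without a filter on low counts (0.0777), with at least 10 counts in every library (0.0514) and with DESeq2 (0.0550).

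In the drug table *Gclm* was at 32.3, 30.5 and 37.8 CPM in DMSO, at 25.7, 22.9 and 32.9 CPM in the XAV939 libraries and at 23.6, 23.9 and 24.9 CPM in those given IWR-1. The IWR-1 libraries lay below DMSO, and XAV939 replicate 3 overlapped it, as for *Gclc*. *Gclm* fell by 0.48 ± 0.14 on the log2 scale with IWR-1 (adjusted p = 0.0209), a call lost without IWR-1 replicate 1 (0.0664), IWR-1 replicate 2 (0.0700) or DMSO replicate 3 (0.0538). With XAV939 the log2 fold change was -0.30 ± 0.14 (adjusted p = 0.159), and with the replicate block -0.31 (adjusted p = 0.0316). Without XAV939 replicate 3 it was -0.48 (adjusted p = 0.0317). *Gclm* shares exon bases with *Gm17494* on the other strand and with the pseudogene *Gm6061* on its own, so part of its reads may have been dropped or assigned there.

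*Slc7a11* (Entrez 26570, chr3:50364936-50499087, minus strand) encodes the cystine-importing subunit of the cystine/glutamate exchanger, which supplies the cysteine for glutathione, and it is also a target of the amino acid stress factor ATF4. In siCtrl it was at 16.8, 13.9 and 16.6 CPM and in siTnks/2 at 21.0, 18.4 and 23.0 CPM, without overlap. The log2 fold change of 0.40 ± 0.12 missed the threshold (adjusted p = 0.0573) and passed it with the replicate block (0.40, adjusted p = 0.0108), with DESeq2 (0.0262) and without siTnks/2 replicate 2 (0.0225). In DMSO it was at 28.5, 32.3 and 51.8 CPM, against 28.2, 33.7 and 43.2 CPM in the XAV939 libraries and 22.4, 28.7 and 27.3 CPM in those given IWR-1. Both treated groups overlapped DMSO. With XAV939 the log2 fold change was -0.10 ± 0.22 (95% interval -0.59 to 0.40). With IWR-1 it was -0.52 ± 0.22 (adjusted p = 0.0957), and -0.48 with the replicate block (adjusted p = 0.00790). Without DMSO replicate 1 it was -0.69 (adjusted p = 0.0485).

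*Srxn1* (Entrez 76650, chr2:152105524-152111376, plus strand) encodes sulfiredoxin, which repairs overoxidised peroxiredoxins, and *Txnrd1* (Entrez 50493, chr10:82833951-82897724, plus strand) encodes the cytosolic thioredoxin reductase. *Srxn1* was at 179, 169 and 192 CPM in DMSO, at 83.0, 84.5 and 107 CPM in the XAV939 libraries and at 73.1, 73.4 and 77.1 CPM in those given IWR-1. The highest treated library was far below the lowest DMSO library. *Srxn1* fell to 0.509 times DMSO with XAV939 (log2 fold change -0.97 ± 0.11, adjusted p = 0.000381) and to 0.414 times with IWR-1 (-1.27 ± 0.12, adjusted p = 1.8e-05). In the knockdown it moved the other way, from 66.2, 61.2 and 69.1 CPM in siCtrl to 81.2, 74.0 and 79.0 CPM in siTnks/2, all above siCtrl. *Srxn1* rose by 0.25 ± 0.07 on the log2 scale (adjusted p = 0.0438). The call was kept when siTnks/2 replicate 2 was left out and lost when any of the other 5 libraries was (adjusted p from 0.0785 to 0.135), with upper-quartile scaling (0.0503) and without a filter (0.0549).

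*Txnrd1* was at 244, 216 and 281 CPM in DMSO, at 136, 142 and 175 CPM in the XAV939 libraries and at 128, 130 and 142 CPM in those given IWR-1, again without overlap. It fell to 0.610 times DMSO with XAV939 (log2 fold change -0.71 ± 0.13, adjusted p = 0.00421) and to 0.540 times with IWR-1 (-0.89 ± 0.13, adjusted p = 0.000367). In the siRNA table it was at 133, 129 and 135 CPM in siCtrl and 131, 112 and 137 CPM in siTnks/2. The groups overlapped, and the log2 fold change was -0.06 ± 0.08 (95% interval -0.25 to 0.13).

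*Osgin1* (Entrez 71839, chr8:119425882-119446257, plus strand), an oxidative stress-induced growth inhibitor, was measured at low depth, with 85 to 265 counts per library. It was at 6.98, 7.36 and 8.33 CPM in DMSO, at 5.44, 4.43 and 4.97 CPM in the XAV939 libraries and at 2.47, 2.86 and 3.42 CPM in those given IWR-1. The 3 groups formed 3 separate steps. *Osgin1* fell to 0.391 times DMSO with IWR-1 (log2 fold change -1.36 ± 0.16, adjusted p = 0.000102) and to 0.659 times with XAV939 (-0.60 ± 0.16, adjusted p = 0.0248). The XAV939 call was lost without DMSO replicate 1 (0.0527), DMSO replicate 3 (0.0603) or XAV939 replicate 2 (0.0683). In the siRNA table its level was 3.89, 3.73 and 4.23 CPM in siCtrl and 4.58, 3.10 and 4.31 CPM in siTnks/2, overlapping, with a log2 fold change of 0.02 ± 0.17.

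The groups were also compared by library, without a model. Treated and control libraries did not overlap for 5 of 9 members in the knockdown (*Hmox1*, *Gclc*, *Slc7a11* and *Srxn1* above, *Gclm* below), beside 43.8% of all genes (21.6% above, 22.2% below). They did not overlap for 4 of 9 with XAV939 (33.2% of all genes, 16.4% above, 16.8% below) and for 8 of 9 with IWR-1 (51.1%, 24.7% above, 26.4% below), all below DMSO. The libraries of the compounds did not overlap for 5 of 9, *Hmox1* higher and *Keap1*, *Gclc*, *Srxn1* and *Osgin1* lower with IWR-1 (37.6% of all genes, 18.2% higher, 19.4% lower). For each of these the exact two-sided permutation test of 3 libraries against 3 gave p = 0.1, the smallest it can give.

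The 2 inhibitors were compared directly, at the same dose and time, in 1 pair of compounds. Of the 9 genes only *Osgin1* differed by the test, beside 17.6% of 13873 genes, 7.37% higher and 10.2% lower with IWR-1. *Osgin1* was lower with IWR-1, at 0.594 times the XAV939 level (log2 difference -0.75 ± 0.16, adjusted p = 0.00979), and the call was lost without IWR-1 replicate 1 (-0.64, adjusted p = 0.0527). For the other 8 the difference did not pass, and its 95% interval on the log2 scale was -0.42 to 0.22 for *Nfe2l2*, -0.51 to -0.01 for *Keap1*, -0.05 to 0.46 for *Hmox1*, -1.01 to -0.11 for *Gclc*, -0.48 to 0.14 for *Gclm*, -0.92 to 0.07 for *Slc7a11*, -0.55 to -0.04 for *Srxn1* and -0.46 to 0.11 for *Txnrd1*. With the replicate block 3 of these were also lower with IWR-1, *Gclc* (-0.54, adjusted p = 0.00179), *Slc7a11* (-0.40, adjusted p = 0.0314) and *Srxn1* (-0.29, adjusted p = 0.0293), where the block called 30.7% of all genes, 14.1% higher and 16.6% lower. *Hmox1* was the member whose estimate lay higher with IWR-1 than with XAV939, at 489 ± 37.1 against 424 ± 39.6 CPM (mean ± SD), a difference of 0.21 ± 0.11 that did not pass the test (adjusted p = 0.252).

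The effects of inhibition and knockdown were set against each other by an interaction contrast over all 15 libraries, which tests the drug effect minus the knockdown effect. For XAV939 the difference passed for 4 of 9 members, all lower, where 13.5% of 14271 genes were called, 5.40% higher and 8.07% lower. These were *Hmox1* (-1.36 ± 0.14, adjusted p = 8.2e-05), *Srxn1* (-1.24 ± 0.14, adjusted p = 0.000125), *Gclc* (-0.91 ± 0.25, adjusted p = 0.0303) and *Txnrd1* (-0.67 ± 0.17, adjusted p = 0.0177). For IWR-1 it passed for 6 of 9, all lower, where 24.4% were called, 10.5% higher and 13.9% lower. These were *Srxn1* (-1.53 ± 0.14, adjusted p = 6.4e-06), *Gclc* (-1.46 ± 0.26, adjusted p = 0.000874), *Osgin1* (-1.38 ± 0.24, adjusted p = 0.000742), *Hmox1* (-1.15 ± 0.14, adjusted p = 5.9e-05), *Slc7a11* (-0.93 ± 0.29, adjusted p = 0.0311) and *Txnrd1* (-0.84 ± 0.17, adjusted p = 0.00210). With the replicate block *Nfe2l2* (-0.39, adjusted p = 0.0235), *Slc7a11* (-0.49, adjusted p = 0.0446) and *Osgin1* (-0.62, adjusted p = 0.0344) were added for XAV939, and *Nfe2l2* (-0.48, adjusted p = 0.00608) for IWR-1. Over all genes the block called 28.2% for XAV939 (12.7% higher, 15.4% lower) and 36.3% for IWR-1 (17.0% higher, 19.3% lower). Leaving out a library ended the call for *Gclc* with XAV939 in 7 of 15 fits (adjusted p up to 0.0733) and for *Slc7a11* with IWR-1 in 5 of 15 (up to 0.0751). For *Gclm* the difference did not pass for either compound, with 95% intervals of -0.46 to 0.25 for XAV939 and -0.63 to 0.08 for IWR-1.

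**Figure D3:**
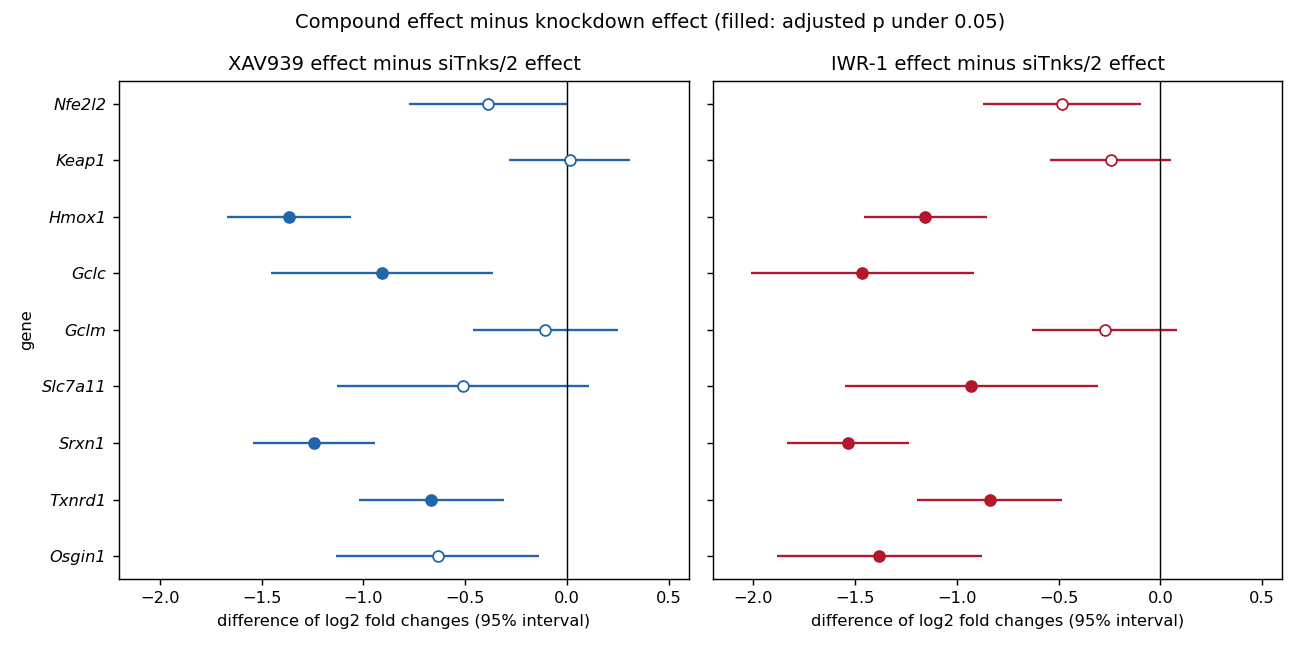
Difference between the log2 effect of each inhibitor and that of the knockdown for the 9 genes, with 95% intervals, XAV939 on the left and IWR-1 on the right, in the fit without a replicate block. Filled points have an adjusted p-value under 0.05, and negative values mean a lower effect of the inhibitor. The intervals of *Hmox1* and *Srxn1* end at or below -0.85 in both panels, whereas those of *Keap1* and *Gclm* include 0 in both.

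The siRNA and drug tables differ in more than the way tankyrase was targeted, since the controls started from different levels of these genes, exposure differed and the time after transfection is not given. For *Hmox1*, the level scaled over all libraries was at most 527 CPM outside the DMSO group. Its drug-treated means were 419 CPM with XAV939 and 484 CPM with IWR-1. These were nearer to siCtrl (316 CPM) and siTnks/2 (357 CPM) than to DMSO (953 CPM). *Gclc*, *Gclm*, *Srxn1*, *Txnrd1* and *Osgin1* likewise had drug-treated means nearer to siCtrl than to DMSO. *Nfe2l2* did not, at 142 CPM with XAV939 and 133 CPM with IWR-1, against 72.4 CPM in siCtrl and 187 CPM in DMSO. For *Slc7a11* and *Keap1* the XAV939 mean was nearer to DMSO and the IWR-1 mean nearer to siCtrl. The part of the starting level in the differences between drug and knockdown effects was not tested.

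The other genes of the programme were taken from a list of 70, also chosen with earlier results of these data known. Of these, 66 passed the filter on low counts for the knockdown and 65 for the compounds. In the knockdown 10 rose and 7 fell, which is 25.8% of those tested beside 18.0% of all genes. With XAV939 4 rose and 11 fell (23.1%, beside 17.4%). With IWR-1 4 rose and 31 fell (53.8%, beside 36.4%), and compared with XAV939 none was higher and 17 were lower with IWR-1 (26.2%, beside 17.6%). The median log2 fold changes were -0.02 in the knockdown, -0.07 with XAV939, -0.33 with IWR-1 and -0.23 between the compounds. With the replicate block, 27 were called in the knockdown (15 higher, 12 lower), beside 34.6% of all genes, 28 with XAV939 (8 higher, 20 lower; 33.4%), 41 with IWR-1 (8 higher, 33 lower; 47.5%) and 33 between the compounds (5 higher, 28 lower; 30.7%).

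**Figure D4:**
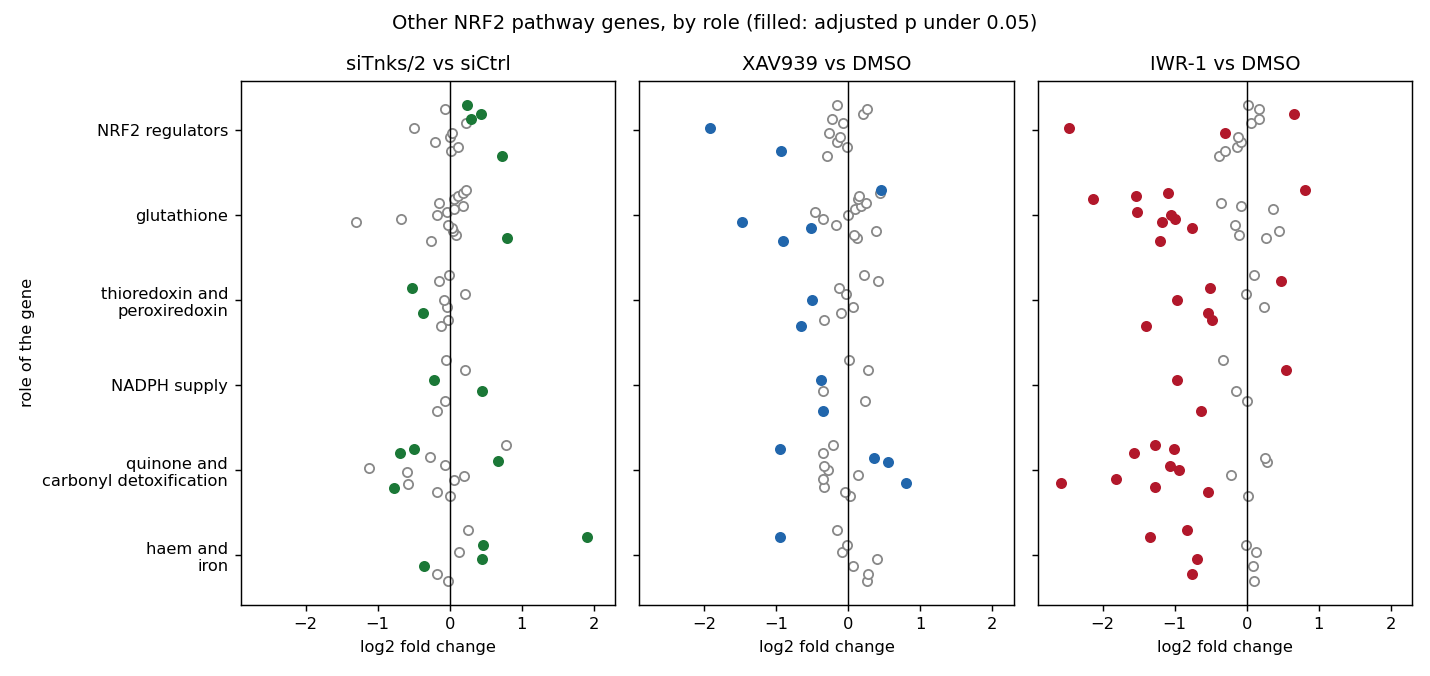
Log2 fold change of the other NRF2 pathway genes against the control of the same table, 1 point per gene, grouped by role, for the knockdown, XAV939 and IWR-1, in the fits without a replicate block. Filled points have an adjusted p-value under 0.05. With IWR-1, 9 of 13 genes of quinone and carbonyl detoxification and 9 of 17 of glutathione metabolism are filled on the negative side, compared with 1 and 3 with XAV939. Over all genes 20.2% were lower with IWR-1 and 9.85% with XAV939.

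Among the 12 regulators tested, 4 rose in the knockdown, where 10.4% of all genes rose. They included *Bach1*, the repressor that competes for the ARE (log2 fold change 0.73, adjusted p = 0.00410), and *Nfe2l1*, an NRF2 relative (0.43, adjusted p = 0.0357). *Bach1* was at 18.6 to 20.9 CPM in siCtrl and 30.4 to 34.0 CPM in siTnks/2. *Maff*, a small MAF partner of NRF2, fell with both compounds, by 1.91 with XAV939 (adjusted p = 0.000168) and by 2.47 with IWR-1 (adjusted p = 9.7e-06) on the log2 scale. It was at 39.4 to 45.8 CPM in DMSO, 9.53 to 13.1 CPM after XAV939 and 5.99 to 10.0 CPM after IWR-1, the strongest fall among the regulators. In the siRNA table *Maff* was at 6.70 to 11.9 CPM in siCtrl, a range that overlaps that of the drug-treated cells, although each table was scaled by itself. *Nfe2l1* rose with IWR-1 (0.65, adjusted p = 0.00451), where the XAV939 value was 0.21 (adjusted p = 0.344). *Bach2* fell with XAV939 (-0.93, adjusted p = 0.0138) and had -0.30 with IWR-1 (adjusted p = 0.291). It was scarce, averaging 2.16 CPM in DMSO, 1.1 CPM with XAV939 and 1.74 CPM with IWR-1. *Fbxw11*, part of another ligase for NRF2, fell with IWR-1 (-0.31, adjusted p = 0.0238) and had -0.27 with XAV939 (adjusted p = 0.0668). In the direct comparison of the compounds none of the 12 regulators was called, beside 17.6% of all genes, so none was shown to differ between them. When libraries were left out in turn, the *Fbxw11* call was kept in 5 of 9 fits and the *Nfe2l1* call in the knockdown in 1 of 6.

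Of 17 glutathione genes tested, 1 rose and none fell in the knockdown, 1 rose and 3 fell with XAV939, and 1 rose and 9 fell with IWR-1. Over all genes 10.4% rose and 7.61% fell in the knockdown, 7.57% and 9.85% with XAV939, and 16.2% and 20.2% with IWR-1. *Slc3a2*, the chain that pairs with the *Slc7a11* product at the membrane, was the gene that rose with both compounds (0.45 with XAV939, adjusted p = 0.0238, and 0.80 with IWR-1, adjusted p = 0.000365), the XAV939 call being kept in 5 of the 9 fits leaving out a library. The export pump *Abcc1* fell with both compounds (-0.90 with XAV939, adjusted p = 0.000918, and -1.20 with IWR-1, adjusted p = 4.0e-05), as did the transferase *Gsta1* (-1.47, adjusted p = 0.0165, and -1.18, adjusted p = 0.0204). *Gsta1* was scarce, averaging 1.88 CPM in DMSO, 0.62 CPM with XAV939 and 0.79 CPM with IWR-1. The transferases *Mgst1* (-1.54, adjusted p = 0.000149) and *Gstt1* (-2.14, adjusted p = 0.00120) fell with IWR-1, where XAV939 gave 0.15 (adjusted p = 0.60) and 0.13 (adjusted p = 0.824). The pump *Abcc4* was the gene that rose in the knockdown (0.79, adjusted p = 0.0185), a call lost without siCtrl replicate 1, siTnks/2 replicate 1 or siCtrl replicate 2.

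Of 9 thioredoxin and peroxiredoxin genes, 2 fell in the knockdown, 2 with XAV939 and 5 with IWR-1, where 1 rose. Over all genes 7.61% fell in the knockdown, 9.85% with XAV939 and 20.2% with IWR-1, where 16.2% rose. Glutaredoxin (*Glrx*) fell by 0.66 with XAV939 (adjusted p = 0.00323) and by 1.39 with IWR-1 (adjusted p = 1.2e-05), and *Prdx5* by 0.50 (adjusted p = 0.0267, kept in 5 of 9 fits leaving out a library) and 0.96 (adjusted p = 0.000262). *Txn1*, the substrate of the *Txnrd1* product, fell by 0.53 in the knockdown (adjusted p = 0.00858) and *Prdx2* by 0.37 (adjusted p = 0.0141, lost without siCtrl replicate 1 or 3). Mitochondrial *Txn2* rose with IWR-1 (0.48, adjusted p = 0.0432), but the call was lost when any of 6 of the 9 libraries was left out.

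NADPH, the reductant that thioredoxin and glutathione reductases use, is supplied in part by the pentose phosphate pathway. Its dehydrogenases fell with both compounds, *G6pdx* by 0.35 with XAV939 (adjusted p = 0.0231) and 0.64 with IWR-1 (adjusted p = 0.000280), and *Pgd* by 0.38 (adjusted p = 0.0253) and 0.97 (adjusted p = 4.0e-05). The XAV939 calls were kept in 6 (*G6pdx*) and 5 (*Pgd*) of the 9 fits leaving out a library. *Pgd* was lower also in the knockdown (-0.21, adjusted p = 0.0369), a call that was kept in 1 of the 6 fits leaving out a library. Malic enzyme *Me1* rose in the knockdown (0.44, adjusted p = 0.0111), a call lost without siCtrl replicate 1 or 3, and *Taldo1* with IWR-1 (0.54, adjusted p = 0.0136), lost without IWR-1 replicate 1.

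Of the 8 haem and iron genes, *Slc40a1*, which encodes the iron exporter ferroportin, moved in opposite directions. It was at 10.9 to 17.6 CPM in siCtrl and 43.8 to 75.2 CPM in siTnks/2, a rise of 1.90 ± 0.26 on the log2 scale (adjusted p = 0.00773), and the drug and knockdown effects differed by the interaction contrast (-2.86 ± 0.31 for XAV939, adjusted p = 9.1e-05, and -3.26 ± 0.31 for IWR-1, adjusted p = 8.5e-06). In DMSO *Slc40a1* was at 12.6 to 16.7 CPM, with XAV939 at 6.76 to 8.49 CPM (-0.94 ± 0.16, adjusted p = 0.00268) and with IWR-1 at 5.02 to 6.37 CPM (-1.34 ± 0.16, adjusted p = 9.8e-05). The constitutive haem oxygenase *Hmox2* rose in the knockdown (0.46, adjusted p = 0.0153) and ferrochelatase (*Fech*) fell (-0.36, adjusted p = 0.0360). Each of these 2 calls was kept in 2 of the 6 fits leaving out a library. The haem transporter *Slc48a1* fell with IWR-1 (-0.84, adjusted p = 0.000231), and its XAV939 value was -0.16 (adjusted p = 0.369). Ferritin heavy chain *Fth1* and *Blvrb*, a biliverdin reductase, were lower with IWR-1 than with XAV939 (-1.08, adjusted p = 0.00617, and -1.03, adjusted p = 0.0123).

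Quinone and carbonyl detoxification included *Nqo1* (Entrez 18104, chr8:107388225-107403205, minus strand), the quinone reductase that is among the most used readouts of NRF2. Its estimates were positive with every treatment. *Nqo1* was at 65.0, 59.9 and 71.5 CPM in siCtrl and 102, 101 and 109 CPM in siTnks/2, and it rose to 1.59 times the control (log2 fold change 0.67 ± 0.08, adjusted p = 0.00508). In DMSO it was at 52.0, 56.0 and 66.5 CPM, with XAV939 at 74.0, 69.2 and 112 CPM and with IWR-1 at 70.8, 68.7 and 71.7 CPM, all above DMSO. The XAV939 change of 0.55 ± 0.17 passed narrowly (adjusted p = 0.0489) and was lost when any of 7 of the 9 libraries was left out, and the IWR-1 value was 0.27 ± 0.17 (adjusted p = 0.240). The interaction contrast did not show the effect on *Nqo1* to differ between either compound and the knockdown (-0.13, 95% interval -0.58 to 0.32, for XAV939 and -0.40, -0.85 to 0.05, for IWR-1). Its promoter window held neither set of letters.

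In the same group 9 of 13 genes fell with IWR-1 and none rose, where 20.2% of all genes fell and 16.2% rose. The aldehyde dehydrogenase *Aldh3a1* fell by 2.58 (adjusted p = 5.2e-05) and the aldehyde oxidase *Aox1* by 1.81 (adjusted p = 0.000128), where the XAV939 value of *Aox1* was -0.35 (adjusted p = 0.292). With XAV939 *Aldh3a1* had risen (0.80, adjusted p = 0.0419, a call kept in 1 of the 9 fits leaving out a library). *Ugdh*, which makes UDP-glucuronic acid, fell with XAV939 (-0.95, adjusted p = 0.00248), with IWR-1 (-1.02, adjusted p = 0.000513) and in the knockdown (-0.49, adjusted p = 0.0130). Between the compounds *Aldh3a1* was lower with IWR-1 by 3.38 ± 0.28 on the log2 scale (adjusted p = 5.4e-05), and 17 genes of the 65 were lower with IWR-1, beside 10.2% of all genes. *Aldh3a1* was scarce, averaging 4.30 CPM in DMSO, 7.52 CPM with XAV939 and 0.669 CPM with IWR-1. In the knockdown the reductases *Ptgr1* (-0.69, adjusted p = 0.0463) and *Akr1b8* (-0.78, adjusted p = 0.0231) fell, each lost when any of 4 of the 6 libraries was left out. The glutathione transferases, the *Akr1b* genes and *Ugt1a6a* belong to families of near-identical copies or shared exons, so their counts are uncertain.

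A pair of neighbouring lists was read beside the 9 genes. Of 5 enzymes that remove superoxide or hydrogen peroxide, 3 rose in the knockdown, 2 fell with XAV939 and 4 fell with IWR-1. The ATF4 stress response shares *Slc7a11* with the NRF2 programme. Of 14 of its genes, 5 rose and 1 fell in the knockdown (median log2 fold change 0.18). With XAV939 5 rose and 2 fell (0.32), and with IWR-1 10 rose and 2 fell (0.95). Over all genes 10.4% rose and 7.61% fell in the knockdown, 7.57% and 9.85% with XAV939, and 16.2% and 20.2% with IWR-1. *Slc7a11* itself was called with neither compound in the fit without the block.

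Across the 15 libraries, after the mean of each table was removed, the Pearson correlations between members other than *Keap1* lay between 0.32 (*Hmox1* with *Slc7a11*) and 0.95, the highest being 0.95 for *Srxn1* with *Txnrd1*, 0.91 for *Gclc* with *Srxn1* and 0.90 for *Hmox1* with *Srxn1*, whereas those of *Keap1* lay between 0.02 (*Hmox1*) and 0.40 (*Gclc*). The points share tables, groups and depth, so these values are a description. By the same measure over 11575 genes, the gene outside the 9 most like each was *Usp13* for *Txnrd1* (0.99), *Stc1* for *Srxn1* (0.98), *Shc1* for *Osgin1* (0.98), *Lrrc8d* for *Gclc* (0.98), *Amz1* for *Hmox1* (0.98), *Ttll7* for *Gclm* (0.96), *Dsel* for *Nfe2l2* (0.96), *Dvl1* for *Keap1* (0.92) and *Abcd3* for *Slc7a11* (0.92). In the siRNA libraries alone the correlation was 0.627 for *Hmox1*, 0.697 for *Nfe2l2*, 0.810 for *Gclm*, 0.836 for *Osgin1* and 0.865 for *Keap1*. For the other members it ran from 0.910 (*Srxn1*) to 0.981 (*Slc7a11*). In the drug libraries alone the range was 0.8965 (*Slc7a11*) to 0.995 (*Txnrd1*).

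Markers used for other cells moved with some of these results. The summed level of 8 macrophage and leukocyte markers was 35.01 to 44.6 CPM in DMSO, 31.8 to 38.7 CPM after XAV939 and 14.4 to 20.3 CPM after IWR-1, and 9.31 to 12.1 CPM in siCtrl and 8.36 to 9.92 CPM in siTnks/2. Most of the DMSO sum came from *Cd14*, which averaged 27.4 CPM in DMSO, 20.6 CPM after XAV939 and 8.98 CPM after IWR-1, and the rest mainly from *Cd68* (8.66, 7.60 and 4.23 CPM) and *Lyz2* (3.56, 4.87 and 3.01 CPM). The paper lists *Cd14* among its cartilage-signature genes, so this sum is not specific to macrophages and leukocytes. The defining markers *Ptprc*, *Adgre1*, *Itgam* and *Tyrobp* averaged at most 0.269 CPM in any group. The summed level of 6 fibroblast markers, among them *Col1a1*, was 12040 to 15080 CPM in DMSO, 6226 to 8120 CPM with XAV939, 5747 to 8645 CPM with IWR-1, 5289 to 9044 CPM in siCtrl and 2781 to 7808 CPM in siTnks/2, so it was highest in the group in which *Hmox1*, *Srxn1* and *Txnrd1* were highest, while the chondrocyte markers were lowest there. Osteoblast markers summed to 105 to 298 CPM, and endothelial, erythroid and skeletal muscle markers to at most 6.91 CPM in any library. For all these sums each table was scaled by itself. The part of these differences in the results for the 9 genes was not tested, and in bulk RNA fewer cells of a type and less RNA per cell cannot be told apart.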

How the data were processed

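Primary mouse chondrocyte RNA was sequenced from TruSeq Stranded mRNA libraries. Per the labels, the tools the authors used were Trimmomatic 0.32, TopHat2 2.0.13 on mm10 and HTSeq 0.6.1p1 for gene counts; the annotation, counting mode and strand setting are not given in the sources used here. The deposited values are raw read counts, 24134 Entrez IDs in each of 2 tables, of which 24051 matched a RefSeq symbol. Libraries were assigned to groups by their labels and column names.

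Counts were fitted in R 4.3.3 with edgeR 4.0.16 (TMM, filterByExpr, quasi-likelihood F test, prior count 2, Benjamini-Hochberg over all genes tested, call at 0.05), the siRNA table over its 6 libraries, the drug table over its 9 with 1 estimate of spread, and the interaction contrasts over all 15. P-values come from setting a difference between groups against the spread between libraries. CPM errors are SDs over 3 libraries, log2 fold changes carry SEs, and reads had no molecular identifiers. Same-numbered libraries correlated, after group means were removed, at 0.424 to 0.519 in 3 siRNA pairs and 0.143 to 0.553 in 9 drug pairs, all above 0.1. Differently numbered libraries of different groups correlated at -0.409 to 0.0972 in 6 siRNA pairs and -0.489 to 0.318 in 18 drug pairs. DMSO replicate 2 correlated more with XAV939 replicate 1 (0.318) and IWR-1 replicate 1 (0.316) than with XAV939 replicate 2 (0.143) and IWR-1 replicate 2 (0.244). The replicate number was taken to pair libraries in the fits with a block. This pairing comes from the numbers in the labels, and the correlations of DMSO replicate 2 did not favour it. The main fits and those leaving out a library do not include it. Values of single genes of the other pathway list are given without the block only.

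The 9 members and all lists were chosen with earlier results of these data known. Named genes are the 9, *Tnks*, *Tnks2*, *Nqo1*, the gene most like each member (mean log2 CPM at least 1) and, for each role and comparison, up to 2 called genes each way with the largest change whose libraries do not overlap. Alternatives were RLE and upper-quartile scaling, no filter, at least 10 counts in every library, DESeq2 1.42.0, the replicate number as a block, only the 2 groups of a comparison in the fit, and each library left out in turn.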

Additional observations from a re-analysis of the deposited data

Results flagged for a closer look

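For 10 results the effect of a compound differed from that of the knockdown by the interaction contrast over 15 libraries (edgeR, adjusted over 14271 genes). All were lower with the compound. Over all genes 13.5% were called for XAV939 (5.40% higher, 8.07% lower) and 24.4% for IWR-1 (10.5% higher, 13.9% lower). For XAV939 the log2 differences were -1.364 for *Hmox1*, -1.242 for *Srxn1*, -0.9093 for *Gclc* and -0.6652 for *Txnrd1*. For IWR-1 they were -1.535 for *Srxn1*, -1.465 for *Gclc*, -1.381 for *Osgin1*, -1.155 for *Hmox1*, -0.929 for *Slc7a11* and -0.8394 for *Txnrd1*. The XAV939 and IWR-1 contrasts share the DMSO, siCtrl and siTnks/2 libraries. *Gclc* with XAV939 lost its call in 7 of 15 fits without 1 library: siCtrl replicate 1 (adjusted p = 0.0721), siCtrl replicate 3 (0.0619), siTnks/2 replicate 2 (0.0674), DMSO replicate 1 (0.0526), DMSO replicate 3 (0.0651), XAV939 replicate 1 (0.0733) or XAV939 replicate 2 (0.0709). *Slc7a11* with IWR-1 lost it in 5 of 15: siTnks/2 replicate 1 (0.0533), siCtrl replicate 2 (0.0746), siTnks/2 replicate 3 (0.0671), IWR-1 replicate 1 (0.0751) or DMSO replicate 3 (0.0614). Compound and transfection were in separate tables whose controls differ in these genes, so the manner of targeting, exposure and starting level cannot be told apart.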

How the results depend on the processing

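Of the values of the 9 genes under all alternatives, 387 kept a call and 39 lost one, while of those not called 444 stayed so, 32 gained a call and 16 changed sign. The number of members called in the knockdown, 2, became 1 with upper-quartile scaling, 0 without a filter, 1 with at least 10 counts in every library, 4 with the replicate block and 0 to 3 when a library was left out (DESeq2 gave 2). The count was 0 without siCtrl replicate 1, 2 or 3 or siTnks/2 replicate 1 or 3. The calls over all genes in the knockdown, 2459, fell as well. They became 608, 930 and 678 without siCtrl replicate 1, 2 and 3, and 800 without siTnks/2 replicate 1. With XAV939, 4 became 7 with the block and 3 to 7 without 1 library (7 without XAV939 replicate 3). With IWR-1, 7 became 5 to 8 without 1 library. Between the compounds, 1 became 4 with the block and 0 to 1 without 1 library. For the interaction contrasts, 4 with XAV939 became 7 with the block and 3 to 5 without 1 library, and 6 with IWR-1 became 5 to 8. The block changed no other call of a member than those given above. Of the other pathway genes, 17 in the knockdown became 27 with the block and 5 to 17 without 1 library (5 without siCtrl replicate 1 or 3, 6 without siTnks/2 replicate 1, 8 without siCtrl replicate 2), 15 with XAV939 became 28 with the block, 8 with only the 2 groups in the fit and 8 to 15 without 1 library (8 without DMSO replicate 1), 35 with IWR-1 became 41 with the block and 25 to 36 without 1 library, and 17 between the compounds became 33 with the block and 14 to 26 (26 without DMSO replicate 3). Over all genes, the block moved the calls from 2459 to 4727 in the knockdown, from 2416 to 4630 with XAV939, from 5049 to 6593 with IWR-1 and from 2442 to 4258 between the compounds. With XAV939 the calls over all genes were 1569 with only the 2 groups in the fit and 1322 without DMSO replicate 1. Between the compounds they were 1419 without IWR-1 replicate 1 and 1343 without IWR-1 replicate 2. With only the 2 groups in the fit, *Slc3a2*, *G6pdx*, *Pgd*, *Prdx5*, *Aldh3a1* and *Nqo1* lost their XAV939 calls, and *Nqo1* lost it also with RLE scaling (adjusted p = 0.0531) and at least 10 counts (0.0507). The cause was not tested. The changes of sign came, on the log2 scale, with at least 10 counts for *Nfe2l2* in the knockdown (0.0026) and otherwise without 1 library, where the values ranged in the knockdown from -0.038 to 0.065 for *Nfe2l2*, from -0.0092 to 0.068 for *Keap1*, from -0.12 to 0.017 for *Txnrd1* and from -0.090 to 0.17 for *Osgin1*, with XAV939 from -0.073 to 0.15 for *Keap1* and from -0.29 to 0.19 for *Slc7a11*, between the compounds from -0.20 to 0.072 for *Nfe2l2*, and for XAV939 against knockdown from -0.13 to 0.12 for *Keap1*. *Osgin1*, at 85 to 265 counts, is the member most limited by depth.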
